A study of Mus musculus with 10 samples.

Results

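The 9 genes described here encode the central parts of TGF-beta signalling in mouse O9-1 cells, a tetraploid cell line of the cranial neural crest. They are the ligands *Tgfb1*, *Tgfb2* and *Tgfb3*, the receptors *Tgfbr1*, *Tgfbr2* and *Tgfbr3*, the signal transducers *Smad2* and *Smad3*, and the secreted target *Tgfbi*. They were chosen by name, as the rows of the raw count table with these symbols, and make up 9 of its 43346 genes. Poly-A RNA was sequenced from 10 libraries, namely 4 of wildtype O9-1 cells, 3 of Kat5 ko clones and 3 of Ep400 ko clones. All cells grew on Matrigel in medium conditioned by feeder cells. Both genes had been inactivated by CRISPR/Cas9 editing, and each knockout library stands for a clone grown from a single cell. The Kat5 ko clones carried frameshifts in all alleles. Ep400 ko clone 1 also carried frameshifts in all alleles, whereas Ep400 ko clones 2 and 3 kept alleles with short in-frame deletions at the ATP-binding site. Kat5 is the acetyltransferase and Ep400 the chromatin remodeler of the Tip60/Ep400 complex. The comparisons asked whether transcript levels of the pathway differed between cells without either subunit and wildtype cells.

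TGF-beta ligands are secreted as latent complexes and bind, once released, to a receptor pair in which the constitutively active type II receptor phosphorylates the type I receptor. The type I receptor phosphorylates *Smad2* and *Smad3*, which enter the nucleus together with *Smad4* and regulate transcription. In cells derived from the cranial neural crest, the pathway is known for its part in palate formation, in the smooth muscle of the cardiac outflow vessels and in the differentiation of skeletal tissue.

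Libraries held between 30968945 and 48301792 counts. Levels are given as CPM (counts relative to a library's total, made comparable between libraries with TMM factors), and a gene was called changed at an adjusted p of at most 0.05 (Benjamini-Hochberg over all genes tested in edgeR's quasi-likelihood test). *Kat5* transcripts lay between 16.4 and 23.2 CPM in the Kat5 ko clones and between 48.8 and 57.5 CPM in wildtype cells. *Ep400* transcripts lay between 54.7 and 61.4 CPM in the Ep400 ko clones and between 157 and 165 CPM in wildtype cells. Of the 11 neural crest markers, 10 or 11 exceeded 1 CPM in each group, while the glial marker *Sox10* was at 0 in all libraries. Smooth muscle markers set Kat5 ko clone 1 apart, with a summed level of 685 CPM over *Acta2*, *Tagln*, *Cnn1* and *Myh11*. The other 9 libraries had between 0.461 and 58.8 CPM of these markers, and *Cnn1* and *Myh11* were near 0 everywhere. In Ep400 ko clones, both tested neuronal markers, *Stmn2* and *Tubb3*, were called higher (sum of the 3 neuronal markers 6.25 to 25.6 CPM, against 2.56 to 5.52 CPM in wildtype libraries), and the cartilage marker *Acan* (at most 0.188 CPM, against 5.56 to 24.5 CPM) and the endothelial marker *Pecam1* (at most 0.274 CPM, against 0.665 to 1.59 CPM) were called lower. Of all genes tested in Ep400 ko clones against wildtype, 8.09% were called higher and 5.76% lower. The part of these markers in the results for Ep400 ko clones was not tested. Leaving out Kat5 ko clone 1 raised the number of genes called against wildtype from 67 to 2651, so values without this clone are given beside the calls that they change.

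In wildtype cells the target *Tgfbi* stood highest and the ligand *Tgfb2* lowest when levels were divided by the length of the annotated exons. *Tgfbi* had 43.1 ± 10.9 CPM per kb of exon (SD, n = 4). It was followed by *Tgfb3* with 21.7 ± 1.24, *Tgfbr3* with 20.3 ± 3.15 and *Tgfbr2* with 18.2 ± 2.14 CPM per kb, whose ranges overlapped between neighbours. *Smad3* came next with 11.5 ± 1.49 CPM per kb, apart from both of its neighbours. *Tgfb1* had 7.81 ± 1.60, *Smad2* had 6.07 ± 1.16 and *Tgfbr1* had 4.43 ± 0.37 CPM per kb, again with overlap between neighbours. *Tgfb2* was well below all of these with 0.488 ± 0.18 CPM per kb. *Tgfb3* was thus the ligand with the highest wildtype level per length. By the mean, *Tgfbr3* stood first in both kinds of knockout clones, with 18.7 ± 4.84 CPM per kb in Kat5 ko clones and 45.2 ± 14.9 in Ep400 ko clones (SD, n = 3), but its range overlapped with that of the next gene, *Tgfbr2* in Kat5 ko clones and *Tgfbi* in Ep400 ko clones. *Tgfbi* held the sixth place in Kat5 ko clones with 7.12 ± 4.50 CPM per kb, overlapping with both of its neighbours.

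**Figure D1:**
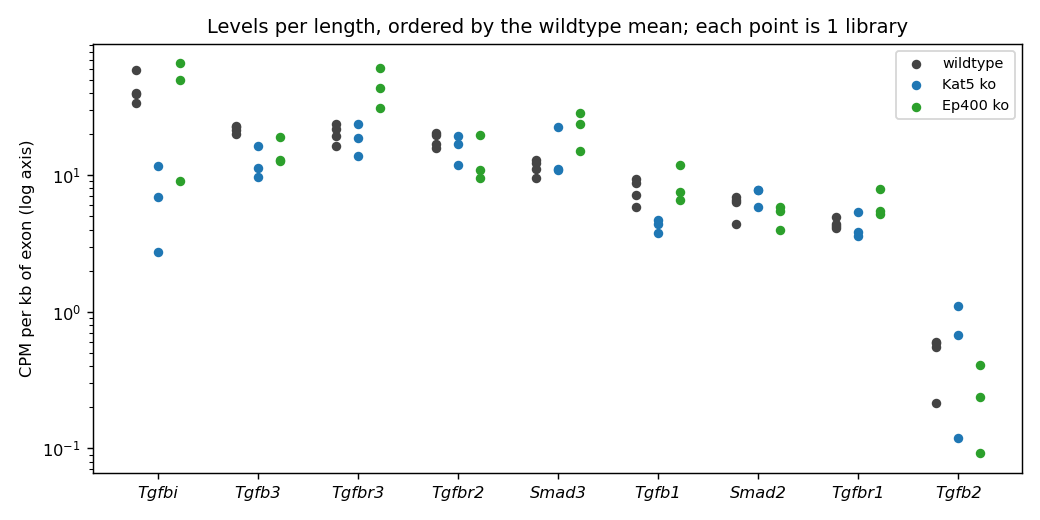
Levels of the 9 genes in CPM per kb of exon on a log axis, ordered by the wildtype mean, with 1 point per library (wildtype n = 4, Kat5 ko n = 3, Ep400 ko n = 3). Tgfbi leads in wildtype cells with a mean of 43.1 and has a mean of 7.12 in Kat5 ko clones, while Tgfb2 is lowest in all groups.

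The bases before the start site are shown for *Tgfb1* and *Tgfbi*, which were below the wildtype range in all Kat5 ko clones, and for *Smad3*, which rose in Ep400 ko clones. The sequences come from RefSeq (GRCm38.p6), whose promoter table held 6 of the 9 genes, and end before the first annotated exon. They are written 5′ to 3′ along the strand of the gene. Capitals mark CAGAC, the SMAD-binding element, and GGGCGG, the GC box bound by Sp1-type factors, on either strand, so that they also appear as GTCTG and CCGCCC.
*Tgfb1* (chr7:25686752-25687001, plus strand): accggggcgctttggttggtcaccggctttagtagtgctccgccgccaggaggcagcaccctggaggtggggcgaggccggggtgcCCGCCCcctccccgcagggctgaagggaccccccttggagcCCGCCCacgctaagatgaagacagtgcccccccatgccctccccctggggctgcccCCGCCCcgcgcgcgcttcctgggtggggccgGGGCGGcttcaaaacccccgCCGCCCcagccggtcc
*Tgfbi* (chr13:56609336-56609522, plus strand): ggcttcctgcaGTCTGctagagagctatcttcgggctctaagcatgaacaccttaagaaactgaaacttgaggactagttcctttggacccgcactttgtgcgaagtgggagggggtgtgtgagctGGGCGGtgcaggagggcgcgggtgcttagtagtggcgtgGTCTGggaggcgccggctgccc
*Smad3* (chr9:63757995-63758244, minus strand): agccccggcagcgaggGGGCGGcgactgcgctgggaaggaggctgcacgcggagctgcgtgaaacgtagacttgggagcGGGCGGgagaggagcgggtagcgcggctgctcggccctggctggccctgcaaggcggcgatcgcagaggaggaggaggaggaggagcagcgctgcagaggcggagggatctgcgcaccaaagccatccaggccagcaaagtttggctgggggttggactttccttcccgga
The *Tgfbi* window of 187 bases held 2 SMAD-binding elements, which started 176 and 22 bases before its end, and 1 GC box. SMAD-binding elements occurred in 34.2% and GC boxes in 22.2% of all 32851 windows of this length. The *Tgfb1* window held 5 GC boxes and the *Smad3* window 2, and neither held a SMAD-binding element. In all windows of 250 bases, GC boxes occurred in 32.7% and SMAD-binding elements in 42.2%. The AP-1 motif TGANTCA, searched on both strands, was in none of the 3 windows and in 6.75% of all windows of 250 bases.

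The ligands *Tgfb1* and *Tgfb3* and the target *Tgfbi* lay below the lowest wildtype library in all 3 Kat5 ko clones. None of the 9 genes passed the adjusted threshold in edgeR against a background of 0.499% of the 13434 genes tested. At an unadjusted p under 0.05 there were 3, namely *Tgfb1*, *Tgfb3* and *Tgfbi*, and DESeq2 called the same 3 genes at its adjusted threshold. In this comparison DESeq2 called 1391 of 22025 genes with counts, many more than edgeR. Of all genes tested, 22.3% reached an unadjusted p of 0.05 and 10.9% had all Kat5 ko clones below all wildtype libraries. The median log2-fold change was −0.145 over the 9 genes and 3.24e-05 over all genes tested.

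In Ep400 ko clones, the co-receptor *Tgfbr3* and the transducer *Smad3* rose. They were the 2 genes called in edgeR, both higher, against a background of 13.9% of the 13836 genes tested (8.09% higher). DESeq2 called both and also *Tgfb3*, which was lower, among 3175 of 22532 genes with counts that it called. Groups did not overlap for 4 of the 9 genes, with *Tgfbr1*, *Tgfbr3* and *Smad3* above and *Tgfb3* below the wildtype range. Such a gap was found for 30.2% of all genes tested, 16.1% above and 14.1% below. The median log2-fold change was −0.047 over the 9 genes and 0.043 over all genes tested. Both sets of clones were compared with the same 4 wildtype libraries, so their values against wildtype are not independent. The part of growth from a single cell in the differences from wildtype was not tested. In bulk RNA, fewer cells with a transcript and less transcript per cell cannot be told apart.

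**Figure D2:**
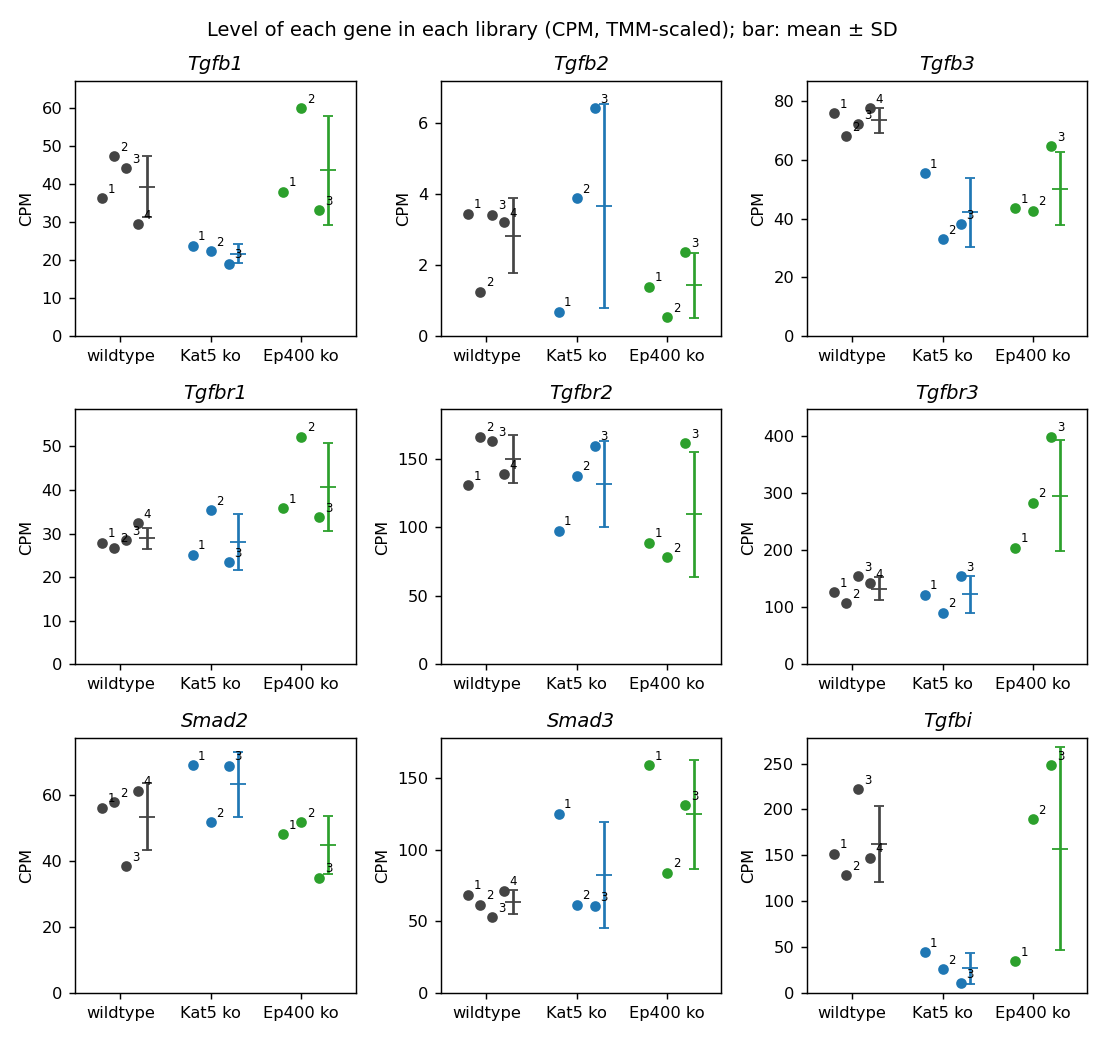
CPM of each gene in each library (points, numbered by replicate or clone) with mean ± SD per group (wildtype n = 4, Kat5 ko n = 3, Ep400 ko n = 3), each panel starting at 0. All Kat5 ko clones lie below all wildtype libraries for Tgfb1, Tgfb3 and Tgfbi, and all Ep400 ko clones lie above them for Tgfbr1, Tgfbr3 and Smad3.

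Among the ligands, *Tgfb1* (ENSMUSG00000002603, chr7:25687002-25705077, plus strand, mm10), the isoform most widely expressed in connective tissue and blood cells, had 36.3, 47.4, 44.3 and 29.5 CPM in wildtype libraries 1 to 4. It had 23.8, 22.3 and 19.04 CPM in Kat5 ko clones 1 to 3. The 3 Kat5 ko clones thus lay close together and under the lowest wildtype library, at 48.4% to 60.5% of the wildtype mean. The log2-fold change was −0.89 (SE 0.20, edgeR adjusted p = 0.0761), and without Kat5 ko clone 1 it was −0.96 (edgeR adjusted p = 0.0269). The Ep400 ko clones 1 to 3 had 38.0, 60.0 and 33.1 CPM, which overlapped with wildtype (log2-fold change 0.15, SE 0.25, edgeR adjusted p = 0.708). This small difference turned to −0.17 without Ep400 ko clone 2 (edgeR adjusted p = 0.648).

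*Tgfb3* (ENSMUSG00000021253, chr12:86056745-86079041, minus strand, mm10), the isoform needed for fusion of the palatal shelves, had 76.0, 68.2, 72.3 and 77.6 CPM in wildtype libraries 1 to 4. Kat5 ko clones 1 to 3 had 55.5, 32.99 and 38.1 CPM, and Ep400 ko clones 1 to 3 had 43.5, 42.8 and 64.6 CPM. All 6 clones were below the narrow wildtype range, with Ep400 ko clone 3 and Kat5 ko clone 1 nearest to it. The log2-fold change was −0.83 in Kat5 ko clones (SE 0.20, edgeR adjusted p = 0.0787) and −0.55 in Ep400 ko clones (SE 0.17, edgeR adjusted p = 0.0676). Each comparison passed the threshold in only 1 of 7 fits that left out 1 library. These were −1.08 without Kat5 ko clone 1 (edgeR adjusted p = 0.0051) and −0.77 without Ep400 ko clone 3 (edgeR adjusted p = 0.0126). Leaving out the clone nearest to wildtype widens a difference by construction, so these 2 fits add no evidence of a change. With all clones, DESeq2 called *Tgfb3* lower in Kat5 ko clones (−0.82, DESeq2 adjusted p = 0.0087) and in Ep400 ko clones (−0.58, DESeq2 adjusted p = 0.0332). In Kat5 ko clone 1, genes of chromosome 12, which holds *Tgfb3*, were shifted by −0.276 on the log2 scale (median over its genes). With such chromosome offsets in the fit, the log2-fold change of *Tgfb3* in Kat5 ko clones was −0.71 (edgeR adjusted p = 0.149). The annotated exons of *Tgfb3* share 257 bases with *Gm48008* and 163 bases with *Gm37804* on the opposite strand.

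*Tgfb2* (ENSMUSG00000039239, chr1:186622792-186705989, minus strand, mm10), the isoform with the broadest role in neural crest derivatives of the heart and skull, was scarce. It had 3.45, 1.24, 3.42 and 3.20 CPM in wildtype libraries 1 to 4. Kat5 ko clones 1 to 3 ranged most widely, with 0.69, 3.89 and 6.41 CPM, and reached both below and above wildtype. Ep400 ko clones 1 to 3 had 1.38, 0.531 and 2.36 CPM. The log2-fold change was 0.34 in Kat5 ko clones (SE 0.66, edgeR adjusted p = 0.801), and without Kat5 ko clone 3 it turned to −0.34. In Ep400 ko clones it was −0.98 (SE 0.56, edgeR adjusted p = 0.258). A difference of moderate size would not have been detectable for *Tgfb2* with this spread. Summed over the 3 ligands, wildtype libraries had 110 to 120 CPM, Kat5 ko clones 59.2 to 80.0 CPM and Ep400 ko clones 82.9 to 103 CPM, so that the sum was below the wildtype range in all 6 clones. *Tgfb1* made up 26.7% to 40.6% of the sum in wildtype libraries, and most of the sum was *Tgfb3*. In Ep400 ko clones the lower sum thus mainly restates the *Tgfb3* values, since *Tgfb1* overlapped with wildtype there. The sum was not tested.

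Of the receptors, *Tgfbr3* (ENSMUSG00000029287, chr5:107106570-107289629, minus strand, mm10), also called betaglycan, presents ligands, *Tgfb2* in particular, to the signalling receptors. It had 126, 107, 155 and 142 CPM in wildtype libraries 1 to 4, and 122, 90.9 and 154 CPM in Kat5 ko clones 1 to 3. With 205, 284 and 399 CPM, Ep400 ko clones 1 to 3 were above all other libraries, with a spread from 154% to 301% of the wildtype mean. The log2-fold change was 1.16 in Ep400 ko clones (SE 0.23, edgeR adjusted p = 0.0160) and −0.14 in Kat5 ko clones (SE 0.20, edgeR adjusted p = 0.713). The call in Ep400 ko clones was missed without wildtype replicate 1 (1.13, edgeR adjusted p = 0.0548). *Tgfbr3* was the only one of the 9 genes to pass in addition the limits of the study, an absolute log2-fold change of 1 and a group mean above 100 normalized counts, which 6.48% of all genes tested passed in this comparison. Its exons share 297 bases with the predicted transcript *Gm43422* on the same strand, so a part of its counts may have been assigned elsewhere.

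*Tgfbr1* (ENSMUSG00000007613, chr4:47353222-47414931, plus strand, mm10), the type I receptor kinase, had 27.9, 26.8, 28.5 and 32.4 CPM in wildtype libraries 1 to 4 and 25.2, 35.3 and 23.4 CPM in Kat5 ko clones 1 to 3. Ep400 ko clones 1 to 3 had 35.9, 52.2 and 33.7 CPM and lay just above the wildtype range, with clone 2 the highest. The log2-fold change of 0.49 in Ep400 ko clones did not pass the test (SE 0.18, edgeR adjusted p = 0.105). Against wildtype, Kat5 ko clones differed by −0.08 (SE 0.18, edgeR adjusted p = 0.834).

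*Tgfbr2* (ENSMUSG00000032440, chr9:116084293-116175360, minus strand, mm10), the type II receptor kinase that binds the ligand first, had 131, 166, 163 and 138 CPM in wildtype libraries 1 to 4 and 97.4, 138 and 159 CPM in Kat5 ko clones 1 to 3. Ep400 ko clones 1 and 2 had 88.7 and 77.9 CPM, below wildtype, whereas Ep400 ko clone 3 had 161 CPM. The log2-fold change was −0.45 in Ep400 ko clones (SE 0.25, edgeR adjusted p = 0.248). It passed in only 1 of 7 fits that left out 1 library, with −0.85 without Ep400 ko clone 3 (edgeR adjusted p = 0.0162). That clone was the one nearest to wildtype, so leaving it out widens the difference by construction. The value in Kat5 ko clones was −0.22 (SE 0.18, edgeR adjusted p = 0.516). The ratio of *Tgfbr3* to *Tgfbr2* CPM, a description without a test, was 0.647 to 1.03 in wildtype libraries, 0.661 to 1.26 in Kat5 ko clones and 2.31 to 3.64 in Ep400 ko clones.

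**Figure D3:**
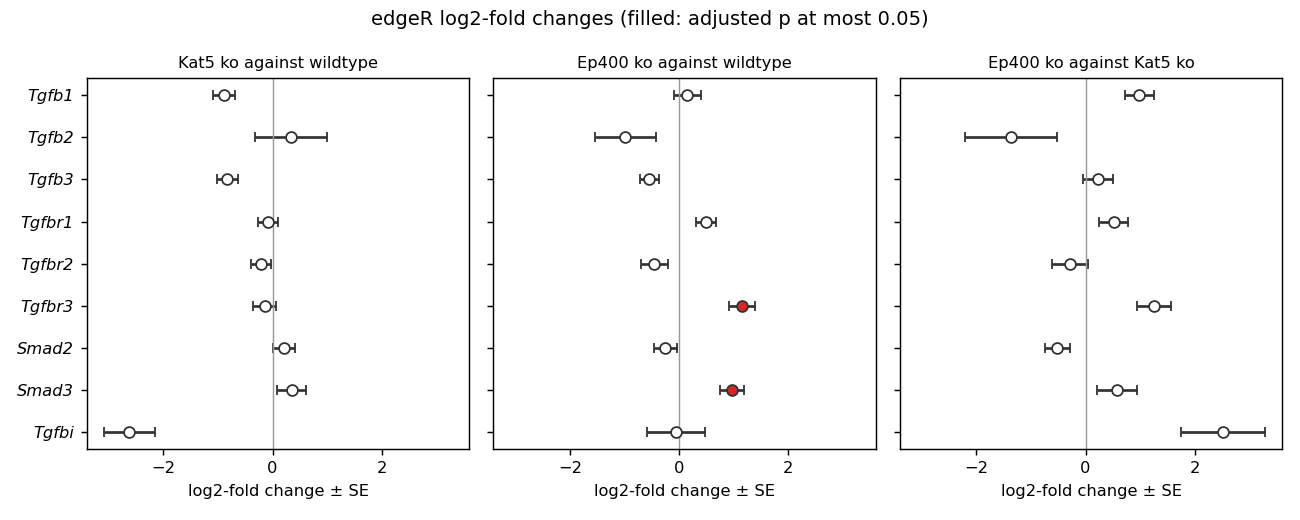
Log2-fold changes ± SE of the 9 genes from edgeR in the 3 comparisons, with filled points for an adjusted p of at most 0.05. Tgfbr3 with 1.16 and Smad3 with 0.97 in Ep400 ko clones are filled, and Tgfbi with −2.62 in Kat5 ko clones is the value farthest from 0.

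*Smad3* (ENSMUSG00000032402, chr9:63646767-63757994, minus strand, mm10), the receptor-activated SMAD that binds DNA directly, had 68.5, 61.4, 52.8 and 71.3 CPM in wildtype libraries 1 to 4. The levels of 159, 83.9 and 131 CPM in Ep400 ko clones 1 to 3 were all above wildtype. Kat5 ko clones 1 to 3 had 125, 61.5 and 60.6 CPM, so that only Kat5 ko clone 1 left the wildtype range. The log2-fold change was 0.97 in Ep400 ko clones (SE 0.22, edgeR adjusted p = 0.0229). This call was missed without wildtype replicate 1 (1.01, edgeR adjusted p = 0.0599), wildtype replicate 2 (0.95, edgeR adjusted p = 0.0628), wildtype replicate 4 (1.03, edgeR adjusted p = 0.0539) or Ep400 ko clone 1 (0.76, edgeR adjusted p = 0.0508). Another fit that missed it was the 1 fit of all 10 libraries. For Kat5 ko clones the value was 0.35 (SE 0.27, edgeR adjusted p = 0.480), and −0.09 without Kat5 ko clone 1. The 3 clones with the highest *Smad3* levels were also those with the highest sums of smooth muscle markers, with 685 CPM in Kat5 ko clone 1, 51.5 CPM in Ep400 ko clone 1 and 58.8 CPM in Ep400 ko clone 3. Ep400 ko clone 2, with 83.9 CPM of *Smad3*, had 2.34 CPM of these markers against 5.84 to 16.6 CPM in wildtype libraries. In Ep400 ko clones 1 and 3 the sum was mostly *Acta2*, with 47.0 and 58.4 CPM. *Tagln* had 4.15 and 0.224 CPM there, against 0.173 to 1.37 CPM in wildtype libraries. The part of these markers in the *Smad3* result was not tested.

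*Smad2* (ENSMUSG00000024563, chromosome 18), the other receptor-activated SMAD of the pathway, had 55.9, 57.7, 38.4 and 61.2 CPM in wildtype libraries 1 to 4. Kat5 ko clones 1 to 3 had 68.8, 51.6 and 68.8 CPM, and Ep400 ko clones 1 to 3 had 47.9, 51.6 and 34.8 CPM. Both sets of clones overlapped with wildtype, with log2-fold changes of 0.21 in Kat5 ko clones (SE 0.20, edgeR adjusted p = 0.553) and −0.25 in Ep400 ko clones (SE 0.21, edgeR adjusted p = 0.425). The ratio of *Smad3* to *Smad2* CPM, a description without a test, was 1.07 to 1.38 in wildtype libraries, 3.31, 1.63 and 3.76 in Ep400 ko clones 1 to 3 and 1.82, 1.19 and 0.882 in Kat5 ko clones 1 to 3.

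*Tgfbi* (ENSMUSG00000035493, chr13:56609523-56639562, plus strand, mm10) encodes a secreted matrix protein that binds collagens and integrins and was named for its induction by TGF-beta. It had 152, 128, 222 and 147 CPM in wildtype libraries 1 to 4 and 44.2, 26.0 and 10.3 CPM in Kat5 ko clones 1 to 3. The 3 Kat5 ko clones thus had 27.2%, 16.0% and 6.34% of the wildtype mean. The log2-fold change of −2.62 was the largest in size among the 9 genes in this comparison and missed the threshold (SE 0.46, edgeR adjusted p = 0.0556). It passed in 1 of 7 fits that left out 1 library, the fit without Kat5 ko clone 1 (−3.20, edgeR adjusted p = 0.0062). In the remaining fits of this kind the edgeR adjusted p reached 0.186. Of 8 other alternatives, 3 passed, namely chromosome offsets (−2.66, edgeR adjusted p = 0.0463), no filter on low counts (−2.62, edgeR adjusted p = 0.0147) and DESeq2 (−2.61, adjusted p = 1.23e-07). Among those that missed it were 1 fit of all 10 libraries (edgeR adjusted p = 0.0968) and the replicate block (edgeR adjusted p = 0.197). Ep400 ko clones 1 to 3 had 34.4, 189 and 248 CPM. Ep400 ko clone 1 was therefore in the range of the Kat5 ko clones, while Ep400 ko clones 2 and 3 were within or above the wildtype range. The log2-fold change in Ep400 ko clones was −0.05 (SE 0.53, edgeR adjusted p = 0.962) and turned to 0.43 without Ep400 ko clone 1 (edgeR adjusted p = 0.248) and to 0.13 without wildtype replicate 3 (edgeR adjusted p = 0.900).

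When Ep400 ko clones were compared directly with Kat5 ko clones, none of the 9 genes passed the threshold in edgeR against a background of 7.32% of 13587 genes tested. *Tgfb1*, *Tgfbr3* and *Tgfbi* had an unadjusted p under 0.05, as 32.4% of all genes did. DESeq2 called these 3, among 3013 of 22321 genes with counts that it called. *Tgfb1* was 0.99 higher in Ep400 ko clones on the log2 scale (SE 0.27, edgeR adjusted p = 0.0617). *Tgfbr3* was higher by 1.25 (SE 0.31, edgeR adjusted p = 0.0523). *Tgfbi* was higher by 2.52 (SE 0.77, edgeR adjusted p = 0.0747), and by 2.99 without Ep400 ko clone 1 (edgeR adjusted p = 0.0491). The groups did not overlap for *Tgfb1*, *Tgfbr3* and *Smad2*, and 38.9% of all genes tested had such a gap. *Smad2* was at most 51.6 CPM in Ep400 ko clones and at least 51.6 CPM in Kat5 ko clones, a gap too small to print at this precision. *Smad3* differed by 0.57 (SE 0.37, edgeR adjusted p = 0.310), *Tgfbr1* by 0.52 (SE 0.26, edgeR adjusted p = 0.212) and *Tgfb2* by −1.37 (SE 0.85, edgeR adjusted p = 0.293). *Tgfb3* differed by 0.23 (SE 0.28, edgeR adjusted p = 0.595), *Tgfbr2* by −0.29 (SE 0.32, edgeR adjusted p = 0.562) and *Smad2* by −0.52 (SE 0.23, edgeR adjusted p = 0.166). For *Tgfb1*, *Tgfbr3* and *Tgfbi* the outcome of the direct comparison thus depended on the test.

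The 66 further genes of the pathway were grouped by role. In Kat5 ko clones 2 of the 60 tested genes were called, both targets and both higher (0.127% of all genes tested were called higher). There, 20 had an unadjusted p under 0.05, as did 22.3% of all genes tested. In Ep400 ko clones 11 of 61 were called, 10 higher and 1 lower, where 8.09% of all genes tested were called higher and 5.76% lower, and 18 had an unadjusted p under 0.05, as did 32.3% of all genes tested. Of the 11, 4 passed the limits of the study. The median log2-fold change of the list was 0.076 in Kat5 ko clones and 0.010 in Ep400 ko clones. None of the 5 tested genes of the BMP branch (BMP receptors and the SMADs 1, 5 and 9) was called by edgeR in either comparison. An unadjusted p under 0.05 was reached by 0 in Kat5 ko clones (22.3% of all genes tested) and 1 in Ep400 ko clones (32.3%).

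**Figure D4:**
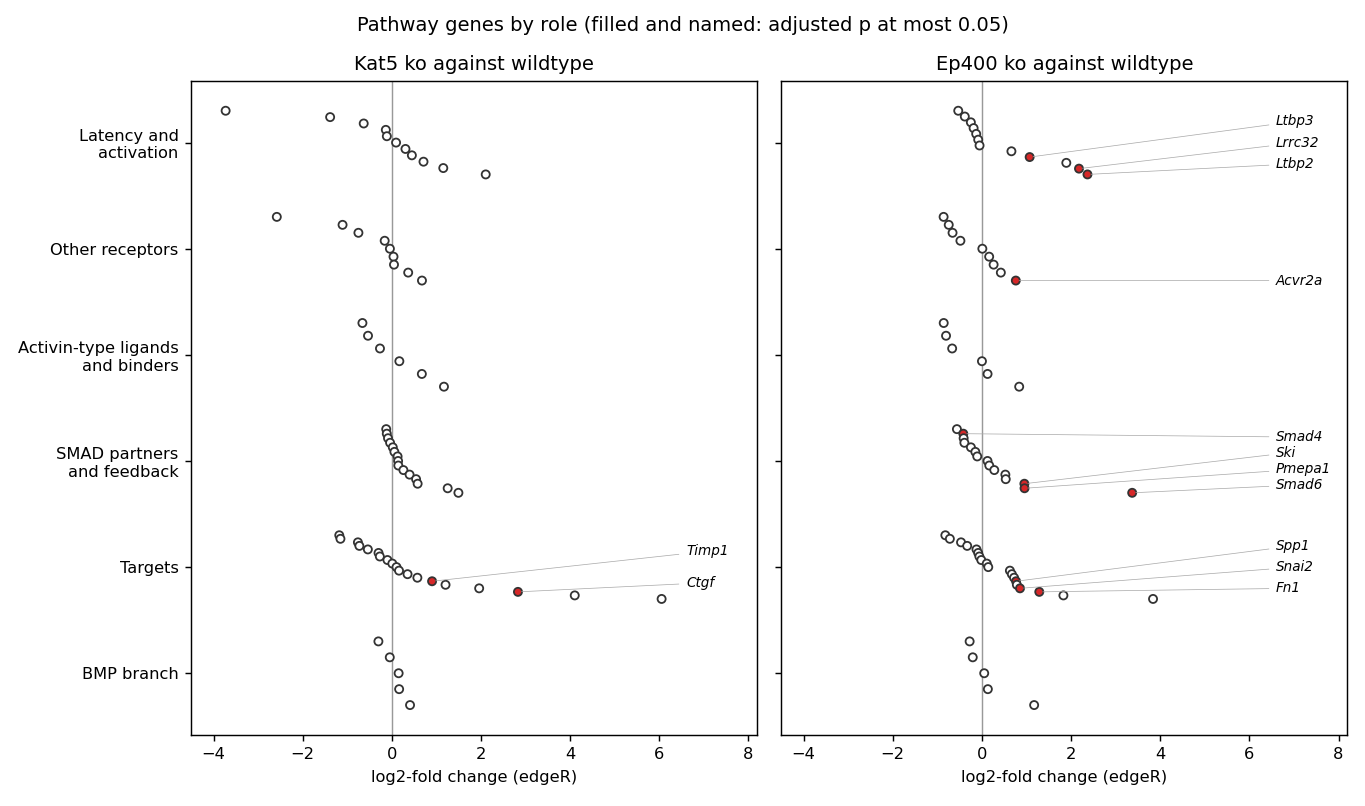
Log2-fold changes from edgeR of the tested genes of the pathway and the BMP branch, arranged by role, with filled and named points for an adjusted p of at most 0.05. In Kat5 ko clones the 2 named genes are targets, and in Ep400 ko clones 10 of the 11 named genes lie above 0.

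Of the genes for latency and activation, 3 of 12 tested rose in Ep400 ko clones, where 8.09% of all genes tested were called higher. In Kat5 ko clones, where 0.499% of all genes tested were called, 0 of 11 passed the edgeR test and 5 had an unadjusted p under 0.05 (22.3% of all genes tested). *Ltbp2* and *Ltbp3* encode latent TGF-beta binding proteins of the matrix. *Ltbp3* had 171 to 265 CPM in wildtype libraries and 476, 457 and 448 CPM in Ep400 ko clones 1 to 3 (log2-fold change 1.07, SE 0.17, edgeR adjusted p = 0.0080). *Ltbp2* had 7.86 to 15.2 CPM in wildtype libraries and 109, 34.7 and 60.7 CPM in Ep400 ko clones 1 to 3 (log2-fold change 2.37, SE 0.38, edgeR adjusted p = 0.0079), a call missed in 1 fit of all 10 libraries (edgeR adjusted p = 0.0525). Its level in Kat5 ko clones 1 to 3 ranged from above to below wildtype, with 62.4, 4.58 and 22.2 CPM (log2-fold change 1.15, SE 0.68, edgeR adjusted p = 0.349), and the difference was −0.0051 without Kat5 ko clone 1. *Lrrc32*, also called GARP, holds latent TGF-beta at the cell surface and was detected near the limit, with 9 to 25 counts per wildtype library, 91, 75 and 96 counts in Ep400 ko clones 1 to 3 and 3, 0 and 1 counts in Kat5 ko clones 1 to 3. It rose in Ep400 ko clones (log2-fold change 2.18, SE 0.44, edgeR adjusted p = 0.0158), a call missed without wildtype replicate 4 (2.12, edgeR adjusted p = 0.0549). Between Ep400 ko and Kat5 ko clones its summed counts were 262 and 4, a ratio per library size of 63.9 with a 95% interval of 24.7 to 236 that covers counting error only. The fitted log2-fold change of 5.86 (SE 0.83, edgeR adjusted p = 0.0233) rests on these few counts and is no bound. Its call was passed in 2 of the 6 fits that left out 1 library, with adjusted p up to 0.104. Against wildtype, *Lrrc32* was lower in Kat5 ko clones by a fitted −3.73 that did not pass (SE 0.85, edgeR adjusted p = 0.0761) and passed without Kat5 ko clone 1 (−4.99, edgeR adjusted p = 0.0175).

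Of the other receptors, 1 of 9 tested was called in Ep400 ko clones, where 13.9% of all genes tested were called and 8.09% were called higher. It was the activin receptor *Acvr2a*, with 6.73 to 9.50 CPM in wildtype libraries and 13.5, 11.9 and 14.9 CPM in Ep400 ko clones 1 to 3 (log2-fold change 0.76, SE 0.21, edgeR adjusted p = 0.0473). This call was missed in each of the 7 fits that left out 1 library, with edgeR adjusted p between 0.0684 and 0.140. No gene of this group was called by edgeR in Kat5 ko clones, where 2 had an unadjusted p under 0.05 (22.3% of all genes tested). *Acvr2a* had 9.29, 15.5 and 14.0 CPM in Kat5 ko clones 1 to 3 (log2-fold change 0.68, SE 0.24, edgeR adjusted p = 0.160) and was called without Kat5 ko clone 1 (0.87, edgeR adjusted p = 0.0314). Of the activin-type ligands and their binders, 0 of 6 tested genes were called by edgeR against wildtype in either set of clones. In each set, 1 had an unadjusted p under 0.05, as did 22.3% of all genes tested in Kat5 ko clones and 32.3% in Ep400 ko clones. *Inhba*, the activin A subunit, lay between 15.0 and 25.5 CPM in Ep400 ko clones and between 31.3 and 81.6 CPM in Kat5 ko clones, with 29.3 to 49.1 CPM in wildtype libraries. Directly compared, it was lower in Ep400 ko than in Kat5 ko clones (log2-fold change −1.58, SE 0.38, edgeR adjusted p = 0.04996), a call missed in each of the 6 fits that left out 1 library (adjusted p 0.0535 to 0.164).

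The group of SMAD partners, co-regulators and feedback genes had 4 of 15 tested genes called in Ep400 ko clones, where 13.9% of all genes tested were called. In Kat5 ko clones, where 0.499% of all genes tested were called, edgeR called 0 of 15 and 3 had an unadjusted p under 0.05 (22.3% of all genes tested). *Ski*, a co-repressor that holds SMAD complexes inactive, had 109 to 127 CPM in wildtype libraries and 225, 230 and 239 CPM in Ep400 ko clones 1 to 3. It rose with little spread (log2-fold change 0.95, SE 0.12, edgeR adjusted p = 0.0038). *Smad6*, an inhibitory SMAD that acts mainly on the BMP branch, rose from 0.391 to 1.66 CPM in wildtype libraries to 10.3, 5.25 and 10.4 CPM in Ep400 ko clones 1 to 3 (log2-fold change 3.37, SE 0.54, edgeR adjusted p = 0.0078). *Pmepa1*, a TGF-beta target that dampens the pathway, had 4.07 to 5.24 CPM in wildtype libraries and 8.37 to 9.31 CPM in Ep400 ko clones (log2-fold change 0.96, SE 0.22, edgeR adjusted p = 0.0267). The *Pmepa1* call was missed without wildtype replicates 1, 2 or 4 or Ep400 ko clone 2, with adjusted p up to 0.0901. In Kat5 ko clones 1 to 3 *Pmepa1* had 20.4, 8.70 and 9.59 CPM, also above wildtype (log2-fold change 1.49, SE 0.33, edgeR adjusted p = 0.0747). This difference passed without Kat5 ko clone 1 (0.99, edgeR adjusted p = 0.0272) and in DESeq2 (1.51, adjusted p = 0.00065). *Smad4*, the shared partner of the activated SMADs, was the gene of the list that fell in Ep400 ko clones, from 94.0 to 105 CPM in wildtype libraries to between 71.7 and 75.8 CPM (log2-fold change −0.42, SE 0.11, edgeR adjusted p = 0.0428). That call was missed in each of the 7 fits that left out 1 library (adjusted p 0.0513 to 0.119). *Usp15*, a deubiquitinase that acts on the type I receptor and on SMADs, was lower in Ep400 ko than in Kat5 ko clones (log2-fold change −1.19, SE 0.28, edgeR adjusted p = 0.0472), with 71.1 to 106 CPM against 130 to 231 CPM. The calls of *Usp15* and of *Smad6* in this direct comparison (log2-fold change 3.43, SE 0.60, edgeR adjusted p = 0.0313) were each passed in 1 of the 6 fits that left out 1 library. Against wildtype, *Usp15* differed by 0.58 in Kat5 ko clones (SE 0.20, edgeR adjusted p = 0.153) and was called higher without Kat5 ko clone 1 (0.80, edgeR adjusted p = 0.0087).

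Among the 20 targets, 19 were tested, and the called genes were *Ctgf* and *Timp1* in Kat5 ko clones and *Fn1*, *Spp1* and *Snai2* in Ep400 ko clones, all higher. Of all genes tested, 0.127% were called higher in Kat5 ko clones and 8.09% in Ep400 ko clones. An unadjusted p under 0.05 was reached by 9 targets in Kat5 ko clones (22.3% of all genes tested) and 5 in Ep400 ko clones (32.3%). *Ctgf*, a matricellular protein, had 7.54 to 8.69 CPM in wildtype libraries, 21.1, 46.8 and 105 CPM in Kat5 ko clones 1 to 3 and 8.19, 8.19 and 9.91 CPM in Ep400 ko clones 1 to 3. Its log2-fold change in Kat5 ko clones was 2.83 (SE 0.45, edgeR adjusted p = 0.0466), and the direct comparison placed it lower in Ep400 ko than in Kat5 ko clones (−2.74, SE 0.54, edgeR adjusted p = 0.0355). The latter call was passed in 1 of the 6 fits that left out 1 library, the fit without Kat5 ko clone 1. *Timp1*, an inhibitor of matrix metalloproteinases, had 111 to 141 CPM in wildtype libraries and 263, 244 and 238 CPM in Kat5 ko clones 1 to 3 (log2-fold change 0.90, SE 0.13, edgeR adjusted p = 0.0390). Both calls in Kat5 ko clones were missed in 6 of 7 fits that left out 1 library, all but the fit without Kat5 ko clone 1, with adjusted p up to 0.186 for *Ctgf* and 0.154 for *Timp1*. In Ep400 ko clones 1 to 3 *Timp1* had 270, 255 and 79.3 CPM, so that clone 3 stood apart. *Timp1* was called there in only 1 of 7 fits that left out 1 library, the fit without that clone (1.01, edgeR adjusted p = 0.0082).

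*Fn1*, the matrix protein fibronectin, had 1226 to 1897 CPM in wildtype libraries and 3579, 2903 and 5413 CPM in Ep400 ko clones 1 to 3 (log2-fold change 1.29, SE 0.26, edgeR adjusted p = 0.0156). This call was missed in 1 fit of all 10 libraries (edgeR adjusted p = 0.0516). Between the knockouts, *Fn1* differed by 1.07 (SE 0.47, edgeR adjusted p = 0.159) and was called without Kat5 ko clone 1 (1.68, edgeR adjusted p = 0.0344). *Spp1*, or osteopontin, had 3332 to 5205 CPM in wildtype libraries, 2484, 2350 and 3091 CPM in Kat5 ko clones 1 to 3 and 6155, 8255 and 7961 CPM in Ep400 ko clones 1 to 3. Kat5 ko clones were thus below and Ep400 ko clones above the wildtype range for *Spp1*. Its log2-fold change was 0.77 in Ep400 ko clones (SE 0.21, edgeR adjusted p = 0.0462) and −0.76 in Kat5 ko clones (SE 0.19, edgeR adjusted p = 0.0831), where it passed without Kat5 ko clone 1 (−0.72, edgeR adjusted p = 0.0464). *Snai2*, a transcription factor of neural crest cells that is also one of the 11 neural crest markers, had 19.5 to 34.7 CPM in wildtype libraries and 41.7, 43.6 and 62.9 CPM in Ep400 ko clones 1 to 3 (log2-fold change 0.86, SE 0.23, edgeR adjusted p = 0.0451). The summed level of the neural crest markers was 1593 to 1837 CPM in wildtype libraries and 1841 to 3069 CPM in Ep400 ko clones. *Prrx1* alone made up 882 to 2158 CPM of the sum in Ep400 ko clones. Of the 11 markers, 4 were above and 2, *Snai1* and *Sox9*, below the wildtype range in all Ep400 ko clones. Of all genes tested, 16.1% lay above and 14.1% below. The part of the neural crest markers in the *Snai2* value was not tested. The calls of *Spp1* and *Snai2* in Ep400 ko clones were each missed in 6 of 7 fits that left out 1 library, all but the fit without Ep400 ko clone 1, with adjusted p up to 0.131 and 0.117. Between the knockouts, *Spp1* (1.48, SE 0.27, edgeR adjusted p = 0.0314), *Snai2* (1.07, SE 0.23, edgeR adjusted p = 0.0413) and *Bhlhe40*, a transcriptional repressor (1.35, SE 0.24, edgeR adjusted p = 0.0314), were higher in Ep400 ko than in Kat5 ko clones. These calls were passed in 1, 1 and 2 of the 6 fits that left out 1 library, with adjusted p up to 0.118, 0.149 and 0.114. *Acta2* and *Tagln*, which are listed both as targets and as smooth muscle markers, were not called with all clones. In Kat5 ko clones both had an unadjusted p under 0.05, with a median log2-fold change of 5.08. Kat5 ko clone 1 stood apart with 505 and 180 CPM, while clone 2 had 0.461 and 0 CPM and clone 3 had 20.6 and 3.15 CPM. *Acta2* was called by edgeR in Ep400 ko clones without Ep400 ko clone 2.

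**Figure D5:**
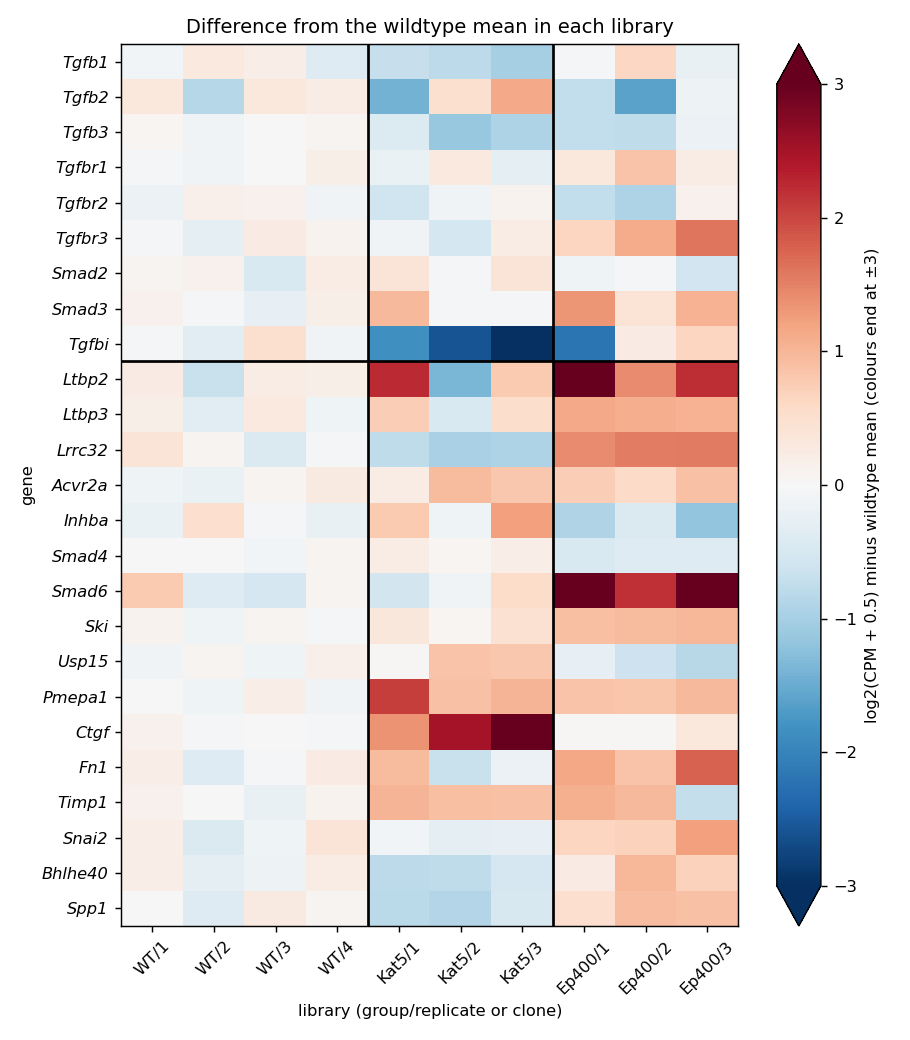
Difference of log2(CPM + 0.5) from the wildtype mean in each library for the 9 genes (above the line) and the 16 further pathway genes called in at least 1 comparison (below it). The Kat5 ko clones differ among themselves in Ltbp2, Tgfb2 and Smad3, and Ep400 ko clone 1 differs from the other Ep400 ko clones in Tgfbi.

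Over the 10 libraries, the log2 CPM values of *Tgfbr3* were most similar to those of *Zhx1* (Pearson r = 0.970), *Zkscan7* (r = 0.967) and *Tctn2* (r = 0.963) among 13321 genes. Those of *Smad3* were most similar to *Fstl1* (r = 0.957), *Megf9* (r = 0.950) and *Pdzd2* (r = 0.950). These coefficients describe the libraries at hand, which share their groups.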

How the data were processed

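RNA sequencing libraries of wildtype O9-1 cells (n = 4), Kat5 ko clones (n = 3) and Ep400 ko clones (n = 3) were analysed from the raw counts per gene that the authors deposited for 43346 genes. Per the labels, libraries were poly-A selected and stranded. The submitters' processing notes name bcl2fastq 2.20, STAR 2.7.3, DESeq2 1.36.0, R 4.2.1 and mm10; the counting program, its strand setting and the annotation are not given in the sources used here, so counts of genes with overlapping antisense transcripts may be mixed. Normalized tables of the same libraries were not used. Groups were taken from the labels. Per the labels, the wildtype libraries are biological replicates, and each knockout library is a separate clone with its own edits.

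Each pair of groups was fitted separately with edgeR 4.0.16 in R 4.3.3 (filterByExpr, TMM, glmQLFit and glmQLFTest, two-sided, Benjamini-Hochberg over all genes tested, called at 0.05). CPM values used TMM factors over all 10 libraries, and log2 CPM a pseudocount of 0.5. SEs are the log2-fold change divided by the root of F. Total counts of 30968945 to 48301792 per library set the counting precision, and mitochondrial counts made up 0.893% to 3.24%. No pair of replicates was a repeat of the same library, since chi-square divided by its degrees of freedom was at least 31.2. Alternatives were DESeq2 1.42.0, RLE factors, library size alone, no filter, 1 fit of all libraries, a replicate block, chromosome offsets, the limits of the study, leaving out each library and, chosen after seeing the data, robust empirical Bayes. The fitting script was tested on simulated data.

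The 9 genes, the pathway lists and the marker lists were chosen with earlier results of these data known. The text names all 9 genes, the pathway genes called in at least 1 comparison, and for each called member the 3 genes with the highest Pearson r over libraries. Positions, exon lengths and overlaps come from GENCODE M21 and promoter windows from RefSeq GRCm38.p6. Same-numbered libraries of different groups had residual correlations of −0.125 to 0.238, so the numbers were not taken to pair them.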

Additional observations from a re-analysis of the deposited data

Results flagged for a closer look

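In the wildtype libraries, Dixon's ratio (the gap of the extreme library to its neighbour over the range) exceeded its 95% critical value of 0.829 for *Tgfb2*, with a ratio of 0.889, and for *Ltbp2*, with a ratio of 0.899. In both cases wildtype library 2 was the low one, with 1.24 CPM of *Tgfb2* against 3.20 to 3.45 CPM and 7.86 CPM of *Ltbp2* against 14.5 to 15.2 CPM in the other wildtype libraries. Chance flags about 1 in 20 groups, and 27 genes were examined.

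In the direct test between Ep400 ko and Kat5 ko clones, edgeR called 8 of 60 tested pathway genes (13.3%), against 7.32% of all genes tested. These calls were fragile: *Inhba* passed in 0, *Smad6*, *Usp15*, *Ctgf*, *Spp1* and *Snai2* in 1 and *Bhlhe40* and *Lrrc32* in 2 of the 6 fits that left out 1 library. On the log2 scale, *Lrrc32* (5.86), *Smad6* (3.43), *Spp1* (1.48), *Bhlhe40* (1.35) and *Snai2* (1.07) were higher in Ep400 ko clones, and *Ctgf* (−2.74), *Inhba* (−1.58) and *Usp15* (−1.19) were lower. The targeted genes differed as labelled, with *Kat5* at 1.74 and *Ep400* at −1.65.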

How the results depend on the processing

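Counts of called genes depended strongly on the fit, more so than the log2-fold changes. In Kat5 ko clones, 67 genes were called in all, 0 of the 9 and 2 of the pathway list. DESeq2 gave 1391, 3 and 12, omitting the filter gave 245 genes and 1 of the 9, 1 fit of all libraries gave 26 genes and 1 pathway gene, chromosome offsets gave 1 of the 9, and the limits of the study left 1 pathway gene. In Ep400 ko clones, 1917, 2 and 11 were called. There, DESeq2 gave 3175, 3 and 14, 1 fit of all libraries gave 1273, 1 and 6, and the limits of the study left 896, 1 and 4. Between the knockouts, with 994, 0 and 8, DESeq2 gave 3013, 3 and 14, omitting the filter 1803 genes and 2 of the 9, 1 fit of all libraries 3539, 3 and 14, and library size alone 2 of the 9. Library size alone also shifted the median of all genes between the knockouts by 0.135 and the share of higher calls from 59.4% to 72.5%. The cause of these differences was not tested.

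The replicate numbers share only a number. With a replicate block, 0 genes and 0 pathway genes were called in Kat5 ko clones, 173 genes, 0 of the 9 and 1 pathway gene in Ep400 ko clones, and 213 genes and 1 pathway gene between the knockouts, where the share of higher calls was 82.2%. *Tgfbr3* had 1.15 (adjusted p = 0.0662) and *Smad3* 0.99 (adjusted p = 0.0887) in Ep400 ko clones in the edgeR fit with the block, and the small differences of *Smad6* in Kat5 ko clones (0.065) and *Tgfb1* in Ep400 ko clones (−0.0054) changed sign.

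Leaving out 1 library at a time gave 1 to 2651 genes, 0 to 3 of the 9 and 0 to 14 pathway genes in Kat5 ko clones, with the highest counts without Kat5 ko clone 1 and the lowest count of genes without wildtype replicate 1. It gave 826 to 2016, 0 to 4 and 5 to 12 in Ep400 ko clones, and 4 to 2537, 0 to 1 and 0 to 10 between the knockouts. Signs of uncalled genes changed in Kat5 ko clones for *Smad6* (−0.74 to 0.44), *Smad3* (−0.089 to 0.54), *Ltbp2* (−0.0051 to 1.67), *Fn1* (−0.45 to 0.46), *Tgfbr3* (−0.33 to 0.042), *Ep400* (−0.043 to 0.28), *Tgfb2* (−0.34 to 0.83) and *Tgfbr1* (−0.27 to 0.044). They also changed in Ep400 ko clones for *Tgfbi* (−0.54 to 0.43) and *Tgfb1* (−0.17 to 0.31) and between the knockouts for *Acvr2a* (−0.16 to 0.17) and *Timp1* (−0.59 to 0.062). Counts of 3 clones per group and few counts for *Tgfb2* and *Lrrc32* limit what could be detected.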
